A study of Mus musculus with 4 samples.

Results

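Heme and iron handling was followed through 10 genes of macrophages that had been given necrotic fat. Their symbols are Hmox1, Blvra, Blvrb, Fth1, Ftl1, Slc40a1, Tfrc, Slc11a1, Slc11a2 and Cd163. They were chosen by what their products do, with earlier results of these data known. Each was found by its exact symbol among the 17013 genes listed in the deposited expression values. Hmox1 was the gene of the 10 that was called changed, at close to 1.93 times its control level, while the ferritin, ferroportin and biliverdin reductase genes were not called.

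The cells were wild-type (WT) mouse bone marrow-derived macrophages, grown from the marrow of C57BL/6 males with M-CSF and seeded on porous inserts. Both groups received artificial necrotic bone fluid (aNBF), a freeze-thaw extract of bone and its marrow, above the cells. Below the cells, the control group (Con, 2 libraries) had the fat control medium, which was the middle layer of freeze-thawed abdominal fat, and the other group (Fat, 2 libraries) had the high-fat-containing medium, its top layer. RNA was collected after 24 h. Both groups thus carried aNBF and necrotic tissue extract, and there was no library without them. Nothing in the labels says whether the libraries of a group came from separate cultures or animals, so p-values rest on spread between these libraries, which may be technical. The age of the mice and the number pooled are not given in the sources used here.

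The authors gave each gene's level as CPM, in which a gene's reads are set against all reads of its library, and as TPM, which takes gene length into account as well. Reads recovered from the CPM values summed to between 33573852 and 40785872 per library over the genes listed. In all libraries but Con replicate 1, the sum exceeded the read depth that the paper states. A test was run on the 12470 genes that reached 0.5 CPM in 2 or more of the 4 libraries, with limma on log2(CPM + 0.1), two-sided. P-values were adjusted over all of these genes by the Benjamini-Hochberg method, and a gene was called at an adjusted p under 0.05. A log2 fold change is Fat minus Con on that scale, and SE is its standard error in the fit. The fit pools each gene's variance with that of genes of similar level (prior degrees of freedom 5.42). An SE or p-value is therefore not a measure of a gene's own spread alone. An exact permutation test of a single gene, 2 libraries against 2, cannot give a p below 0.333.

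Macrophages of the spleen, liver and marrow recycle the iron of old red cells. Hemoglobin bound to haptoglobin enters through the scavenger receptor CD163. Heme oxygenase 1 (Hmox1) opens heme into iron, carbon monoxide and biliverdin. Biliverdin reductase A (Blvra) turns that biliverdin into bilirubin, and Blvrb, the gene of biliverdin reductase B, is listed beside it. The iron is stored in shells of ferritin heavy and light chains (Fth1, Ftl1) or leaves the cell through ferroportin (Slc40a1), the known exporter of cellular iron in mammals. Iron also arrives on transferrin through the transferrin receptor (Tfrc), and the metal transporters NRAMP1 (Slc11a1, in phagosomes) and DMT1 (Slc11a2, in endosomes) move it out of those compartments.

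Ferritin, ferroportin and the transferrin receptor are known to share an RNA control. When iron is scarce, iron regulatory proteins (the products of Aco1 and Ireb2) bind a short hairpin, the iron-responsive element. In the 5′ UTR the bound hairpin blocks translation, and in the 3′ UTR it shields the mRNA from decay. Ferritin control of this kind acts on translation, which mRNA levels do not show. Through such elements the same proteins are known to hold back the storage and export genes and to favour the uptake gene. A search of letters, which can miss elements of another form, found those printed here. Each is 29 bases, 5′ to 3′ on the transcript's strand, from GENCODE vM21 (build GRCm38), with the 6-base loop in capitals.
Fth1, 5′ UTR, chr19:9982732-9982760, plus strand: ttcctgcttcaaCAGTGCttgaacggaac
Ftl1, 5′ UTR, chr7:45459779-45459807, minus strand: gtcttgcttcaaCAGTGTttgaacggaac
Slc40a1, 5′ UTR, chr1:45925465-45925493, minus strand: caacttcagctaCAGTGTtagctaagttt
Tfrc, 3′ UTR, chr16:32631219-32631247, plus strand: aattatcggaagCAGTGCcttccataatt
Tfrc, 3′ UTR, chr16:32631598-32631626, plus strand: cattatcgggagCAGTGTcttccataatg
Tfrc, 3′ UTR, chr16:32631663-32631691, plus strand: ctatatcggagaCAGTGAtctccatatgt
Tfrc, 3′ UTR, chr16:32631710-32631738, plus strand: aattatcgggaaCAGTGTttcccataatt

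These hairpins were found by their letters, as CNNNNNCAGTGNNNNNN with 5 bases on the left of the loop pairing with 5 on its right (G-U pairs allowed), on the transcript strand alone. The pattern occurs in transcripts of 294 of 21877 protein-coding genes (1.34%), in the 5′ UTR of 31 (0.142%) and in the 3′ UTR of 129 (0.590%). The other 6 genes hold no match to these letters in their annotated transcripts. The pattern requires all 5 pairs and admits no unpaired base between them, so it can miss an element of another form. The lack of a match therefore does not show that a gene lacks an element. A match is a description of the letters and was not tested as a site.

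All 10 genes passed the filter on low values. With limma, 1 of the 10 was called higher in Fat (Hmox1), where 3.99% of all genes tested were, and 0 were called lower, where 5.0% were, and 9.0% of all genes were called in either direction. At an unadjusted p under 0.05 the counts were 2 higher (Hmox1 and Tfrc) and 0 lower, where 11.8% of all genes were higher and 12.4% lower (24.1% in either direction), so that 2 of 10 is near the background. With an adjusted p, edgeR and DESeq2 on the recovered reads also called 1 higher and 0 lower. The Fat and Con libraries did not overlap for 5 of the 10 (50.0%), against 55.6% of all genes tested. In Fat, 4 of these were higher (Hmox1, Ftl1, Tfrc and Cd163, against 29.4% of all genes) and 1 was lower (Slc11a2, against 26.2%), which is near the background. Their median log2 fold change was 0.03, beside 0.01 over all genes tested, and the median of the absolute change was 0.10, beside 0.12. Of the 10 genes, 7 lay within 0.15 of 0 on the log2 scale.

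**Figure D1:**
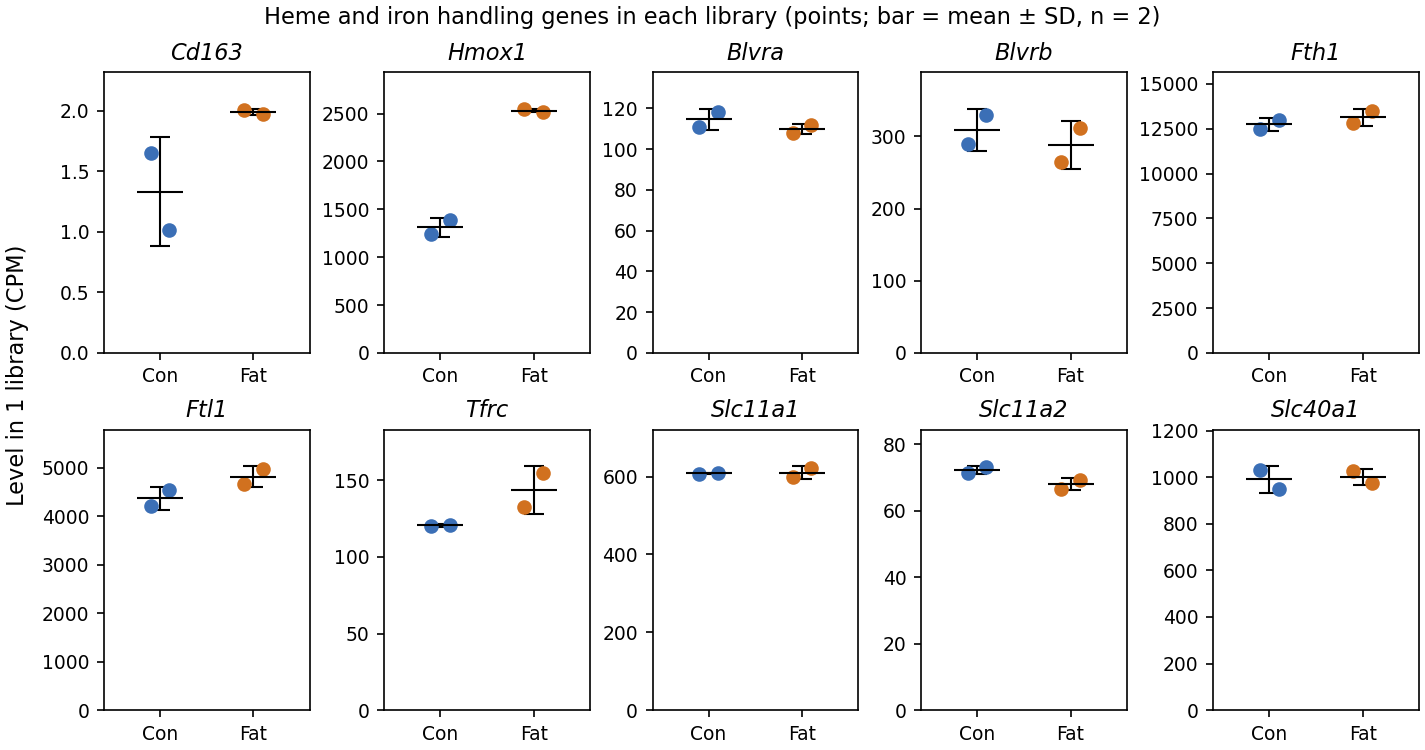
Level of each of the 10 genes in CPM (vertical axis from 0, 1 panel per gene with its own scale) in the 2 Con libraries (blue points) and the 2 Fat libraries (orange points), with the group mean and SD (n = 2) as bars. The Hmox1 points of Fat, at 2544 and 2518 CPM, stand well above those of Con, at 1242 and 1384, while the points of Slc40a1, Slc11a1, Fth1, Blvra and Blvrb overlap between the groups.

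Compared per gene length, the 10 genes spanned the range from the most abundant transcripts of these cells to Cd163, which had at most 81 reads in a library. Fth1 was the 4th most abundant of the 17013 genes by mean TPM, Ftl1 the 10th and Hmox1 the 35th. Fth1 was at 18290 ± 275 TPM in Con and 19277 ± 669 TPM in Fat (SD, n = 2 each). Ftl1 was at 9748 ± 387 and 10990 ± 489 TPM, and Hmox1 at 1804 ± 113 and 3558 ± 27.4 TPM. Blvrb (671 ± 53.4 TPM in Con), Slc40a1 (635 ± 45.5 TPM) and Slc11a1 (572 ± 6.82 TPM) followed. The Con libraries of Blvrb and Slc40a1 overlapped, so the order of these neighbours was not set apart, while the Con libraries of Slc11a1 lay below those of both. Below them came Blvra at 212 ± 6.74 TPM, Tfrc at 53.1 ± 0.374, Slc11a2 at 27.8 ± 0.0802 and Cd163 at 0.644 ± 0.227 TPM, all in Con. In all, the 10 genes took 2.04% and 2.09% of the reads of Con replicates 1 and 2, and 2.21% and 2.33% of those of Fat replicates 1 and 2.

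Of the heme breakdown genes, the mRNA of the first enzyme was called higher in Fat. Hmox1 stood at 1242 CPM in Con replicate 1 and 1384 in Con replicate 2, and at 2544 CPM in Fat replicate 1 and 2518 in Fat replicate 2. All library values that follow are given in this order. Both Fat libraries lay far above both Con libraries, and the Fat pair differed from each other by 0.01 on the log2 scale. Its log2 fold change was 0.95 (SE 0.08, 95% interval 0.75 to 1.14, limma adjusted p = 0.00286), a 1.69-fold to 2.21-fold rise by that interval. Among the 12470 genes tested, 1.96% had a larger absolute change, and its p-value ranked 17th among the genes that were higher with Fat. When the mean-variance trend was left out of the fit, the adjusted p was 0.0697.

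The other genes listed under heme breakdown were not called. Hmox2, the constitutive heme oxygenase, was at 119.0 and 113.0 CPM in Con and at 114.5 and 102.2 CPM in Fat, overlapping, with a log2 fold change of -0.10 (SE 0.07, adjusted p = 0.434). Hmox1 mRNA per length was therefore 9.05 and 10.6 times that of Hmox2 in the Con libraries and 19.3 and 21.4 times in the Fat libraries. Biliverdin reductase A (Blvra) was at 110.9 and 118.3 CPM in Con and 108.2 and 111.7 CPM in Fat. The groups overlapped, and the log2 fold change was -0.06 (SE 0.06, limma adjusted p = 0.585), with an interval from -12.5% to 5.35% of the Con level. Biliverdin reductase B (Blvrb), which also reduces flavins, was at 288.8 and 329.6 CPM in Con and 264.4 and 311.2 CPM in Fat. The replicate 2 library was the higher one in each group, and the gap within each group exceeded the gap between the group means. Its log2 fold change was -0.11 (SE 0.09, adjusted p = 0.549), with an interval from -20.2% to 8.27%. The ratio of Hmox1 to Blvrb in TPM was 2.72 and 2.66 in Con and 6.09 and 5.13 in Fat, which describes levels and was not tested.

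**Figure D2:**
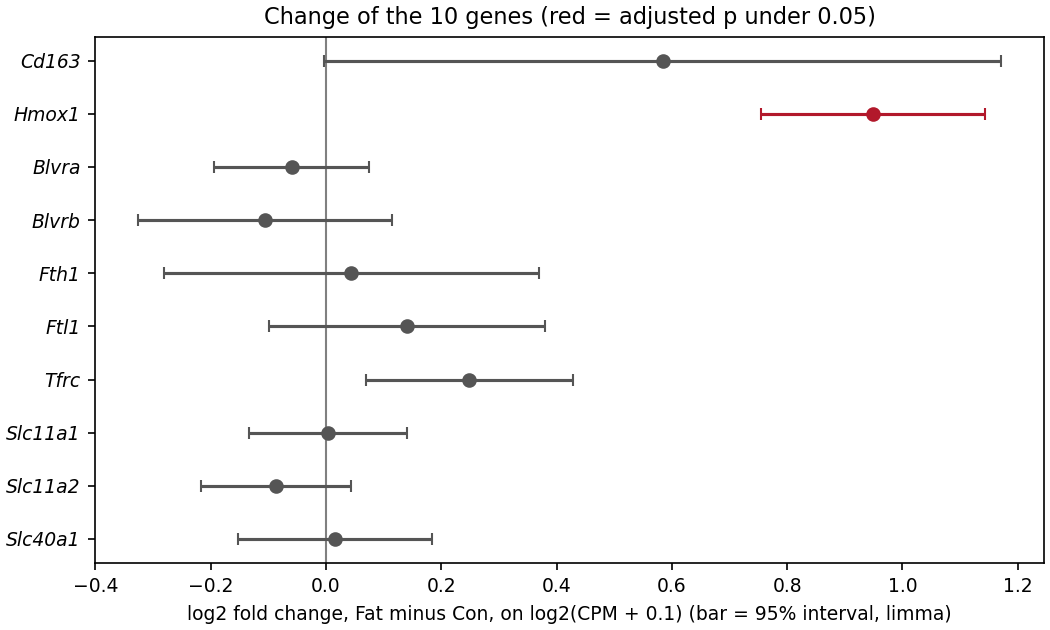
Log2 fold change of each of the 10 genes (horizontal axis, Fat minus Con on log2(CPM + 0.1)), with 95% intervals from limma as bars. Hmox1, in red, is the gene with an adjusted p under 0.05, at 0.95, and Cd163 at 0.58 has the widest interval, from -0.00 to 1.17.

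Among the genes of heme uptake and export, the mRNA of the hemoglobin receptor was low. That of an exporter was called higher and that of a carrier protein lower. Cd163 had 56 and 38 reads in Con and 75 and 81 reads in Fat, with exact 95% Poisson intervals of 42.3 to 72.7, 26.9 to 52.2, 59.0 to 94.0 and 64.3 to 100.7 reads. Counting error is all that these intervals hold, and they treat each read as an independent molecule. The reads carry no molecular identifiers, so the intervals may be too narrow even for that error. In CPM the values were 1.65, 1.01, 2.01 and 1.98, so both Fat libraries were higher, with the Con pair 0.65 apart on the log2 scale. The log2 fold change of 0.58 (SE 0.25) was not called (limma adjusted p = 0.209), and it was 0.26 without Con replicate 2 and 0.91 without Con replicate 1.

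Flvcr1, known as an exporter of heme and as a choline transporter and listed by its older symbol Mfsd7b, was at 85.1 and 91.2 CPM in Con and at 111.1 and 113.6 CPM in Fat. The Fat values exceeded both Con values, and the gene was called, with a log2 fold change of 0.35 (SE 0.06, limma adjusted p = 0.0144). Without Fat replicate 2 its adjusted p was 0.0572, and without the mean-variance trend it was 0.110. Hp (haptoglobin), the plasma protein that binds free hemoglobin, was at 24.6 and 17.9 CPM in Con and at 14.1 and 13.5 CPM in Fat. It was called lower (log2 fold change -0.61, SE 0.14, adjusted p = 0.0396), but with Con replicate 1 left out the change was -0.38 with an adjusted p of 0.0902. The call was also lost without Fat replicate 1 (adjusted p = 0.0511) and without Fat replicate 2 (0.0994), with the TPM values (0.0840), without a filter (0.0521) and with no trend in the fit (0.165). Of the other genes of heme uptake and export, Slc48a1 (the lysosomal heme transporter HRG1), Lrp1 (the receptor for hemopexin-bound heme) and Abcg2 (a porphyrin and heme exporter) had log2 fold changes of -0.02, 0.12 and 0.10 with adjusted p from 0.360 to 0.903.

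The ferritin mRNAs, the most abundant of the group, were not called. Fth1, the heavy chain with the ferroxidase site, was at 12496 and 13016 CPM in Con and at 12820 and 13477 CPM in Fat. The groups overlapped, and the log2 fold change was 0.04 (SE 0.14, limma adjusted p = 0.890), with an interval from -17.7% to 29.1% of the Con level. Without the mean-variance trend in the fit, the SE of Fth1 was 0.07. Ftl1, the light chain, which helps iron mineralise inside the shell, was at 4200 and 4530 CPM in Con and at 4658 and 4966 CPM in Fat. Both Fat libraries were above both Con libraries, yet the log2 fold change of 0.14 (SE 0.10, adjusted p = 0.460) was not called and its interval ran from -6.63% to 30.2%. Per length, Fth1 was 1.91 and 1.84 times Ftl1 in Con and 1.77 and 1.74 times in Fat, lower in both Fat libraries. These ratios are descriptions, and an exact permutation test of them could not go below a p of 0.333.

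The ferritin values carry a limit of sequence. Reads of the authors' length were imitated by cutting 1 GENCODE vM21 transcript per gene into overlapping stretches of 75 bases that began 5 bases apart, and looking for each in the transcripts of other genes with up to 2 mismatches. Every one of the 179 stretches of Ftl1 (100%) was found in at least 1 of 19 other annotated genes, among them the copies Ftl1-ps1 (93.3% of the stretches), Gm15590 (49.2%), Ftl2-ps (46.9%) and Ftl1-ps2 (41.9%). Of the 171 stretches of Fth1, 17 (9.94%) were found in 1 processed pseudogene, Gm6977. None of these 20 genes was listed among the 17013, and Fth1 and Ftl1 were the 2 genes listed whose symbol begins with Fth, Ftl or Ftmt. How reads that match several places were counted is not given in the sources used here, so the Ftl1 level is uncertain, and its value cannot be told apart from one that gained or lost reads to the copies. Of the other members, Slc11a1 shared 1.78% of its stretches (with Gm4829), Slc11a2 0.846% (with Gm5475), and Hmox1, Cd163, Blvra, Blvrb, Tfrc and Slc40a1 shared 0%.

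**Figure D3:**
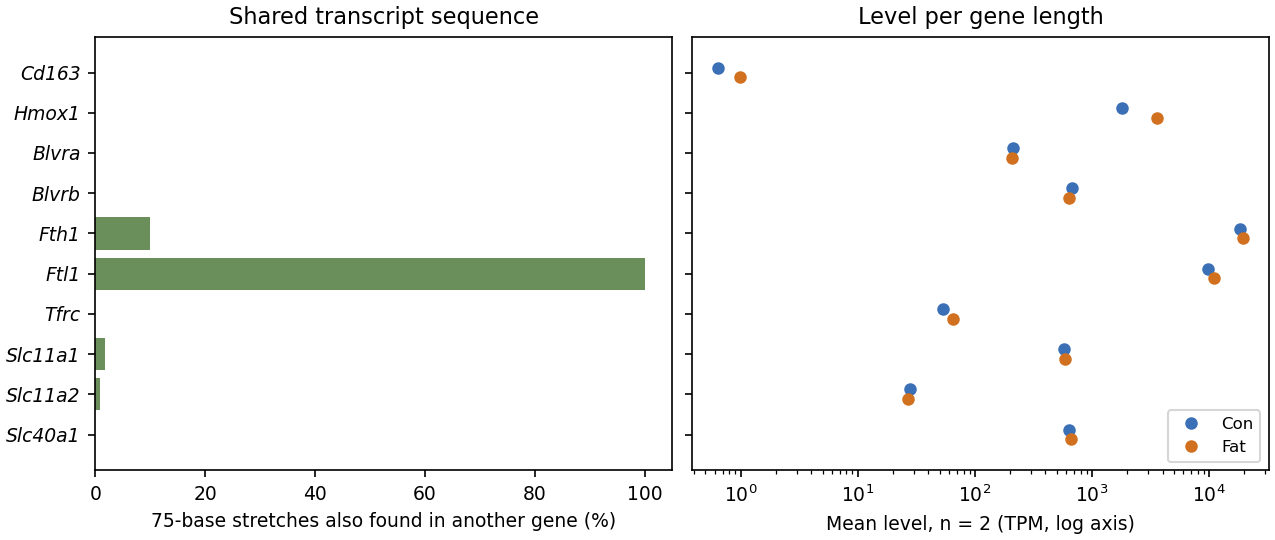
Left, share of the 75-base stretches of each gene's transcript that also occur in another annotated gene (%, bars from 0). Right, mean level in TPM (n = 2, log axis) in Con (blue) and Fat (orange). Ftl1 stands alone at 100% shared and Fth1 follows at 9.94%, and these are also the genes with the highest levels, while Hmox1, with 0% shared, shows a gap between its Con and Fat points.

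Of the genes that load and unload ferritin, the unloading receptor was called lower. Ncoa4, which carries ferritin to the lysosome so that its iron is set free, was at 43.3 and 44.6 CPM in Con and at 36.0 and 30.3 CPM in Fat. Both Fat libraries were lower, with a log2 fold change of -0.41 (SE 0.09, limma adjusted p = 0.0310). The call was lost without Con replicate 1 (adjusted p = 0.0555), Con replicate 2 (0.0569) or Fat replicate 2 (0.115), and in the last case the change was -0.29. It was also lost with the TPM values (adjusted p = 0.0785) and without the mean-variance trend (0.149). The iron chaperones Pcbp2 and Pcbp1, which deliver iron to ferritin, were not called, at log2 fold changes of 0.05 (adjusted p = 0.633) and 0.14 (adjusted p = 0.453), though Pcbp1 was at 0.31 with an adjusted p of 0.0436 without Fat replicate 1.

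Among the iron carriers, the uptake receptor was somewhat higher in Fat without passing the test, and the export gene and both NRAMP family genes were not called, with log2 fold changes between -0.09 and 0.02. Tfrc was at 119.9 and 121.1 CPM in Con and at 132.6 and 154.6 CPM in Fat. The Fat values exceeded both Con values and lay 0.22 apart on the log2 scale, against 0.01 for the Con pair. The log2 fold change was 0.25 (SE 0.08, 95% interval 0.07 to 0.43) with an unadjusted limma p of 0.0132 and an adjusted p of 0.0962. Without Fat replicate 1 it was 0.36 and passed (adjusted p = 0.0212), and without Fat replicate 2 it was 0.14 (adjusted p = 0.430).

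Ferroportin (Slc40a1) was at 1031 and 949.9 CPM in Con and at 1025 and 976.4 CPM in Fat. The groups overlapped, with the replicate 1 library the higher one in each, and the log2 fold change was 0.02 (SE 0.07, limma adjusted p = 0.929). Its interval ran from -10.0% to 13.6% of the Con level, so a change of the size of Hmox1's lay outside it. Ferroportin mRNA per length exceeded that of Tfrc 12.5 and 11.4 times in Con and 11.2 and 9.18 times in Fat.

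Slc11a1, the phagosomal metal transporter NRAMP1, was at 607.5 and 609.1 CPM in Con and at 598.4 and 621.9 CPM in Fat. The Con values lay between the Fat values, and the log2 fold change was 0.00 (SE 0.06, limma adjusted p = 0.978) with an interval from -8.81% to 10.3%. Slc11a2, the endosomal transporter DMT1, was at 71.4 and 73.1 CPM in Con and at 66.7 and 69.4 CPM in Fat. Both Fat libraries were lower, though the log2 fold change of -0.09 (SE 0.06, adjusted p = 0.395) was not called and the interval ran from -14.0% to 3.02%. In TPM, Slc11a1 was 20.8 and 20.4 times Slc11a2 in Con and 21.9 times it in both Fat libraries.

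Around these transporters, Cp (ceruloplasmin), the ferroxidase that helps ferroportin hand iron to transferrin, had the largest absolute log2 change of the 51 pathway genes tested. It was at 9.64 and 6.08 CPM in Con and at 2.55 and 2.49 CPM in Fat (327, 228, 95 and 102 reads). The groups were far apart, lower in Fat, with a log2 fold change of -1.57 (SE 0.21, limma adjusted p = 0.00726), and -1.24 to -1.90 with each library left out in turn. Without the mean-variance trend its adjusted p was 0.0841. Trf (transferrin), the plasma carrier of iron, was at 2031 and 2160 CPM in Con and at 2536 and 2603 CPM in Fat. Again the Fat libraries were the higher ones, but the log2 fold change of 0.29 (SE 0.08) had a limma adjusted p of 0.0700, while edgeR's exact test gave 0.00395 and DESeq2 gave 0.00105 on the recovered reads. With Con replicate 2 left out, limma's adjusted p was 0.0437. The mitochondrial iron importer Slc25a37 and the endosomal ferrireductase Steap3 had log2 fold changes of 0.29 and 0.03 and were not called (adjusted p from 0.268 to 0.881). Without Con replicate 1, Slc25a37 was at 0.54 with an adjusted p of 0.00364.

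Of 9 genes of heme synthesis tested, 0 were called in either direction with limma. At an unadjusted p under 0.05, 2 were higher and 1 lower, beside 24.1% of all genes in either direction. Alas1, whose enzyme starts the pathway and is rate-limiting outside the red cell line, was at 1214 and 1495 CPM in Con and at 1669 and 1592 CPM in Fat. Both Fat libraries were higher, with a log2 fold change of 0.28 (SE 0.11, limma adjusted p = 0.163), which was 0.43 with an adjusted p of 0.0110 without Con replicate 2. Fech, which inserts the iron into the porphyrin ring, and Urod, a middle enzyme of the pathway, had log2 fold changes of -0.03 (adjusted p = 0.797) and -0.07 (adjusted p = 0.590).

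Among the 9 control genes tested, 0 were called with limma. At an unadjusted p under 0.05, 2 were higher and 2 lower, beside the same 24.1% of all genes. Nfe2l2 encodes NRF2, a known activator of Hmox1 and of the ferritin genes, and was at 301.5 and 268.7 CPM in Con and at 246.1 and 259.1 CPM in Fat. The Fat values lay under both Con values, with a log2 fold change of -0.17 (SE 0.07, limma adjusted p = 0.184). Bach1, the heme-sensing repressor of Hmox1, had a log2 fold change of 0.08 (SE 0.06, adjusted p = 0.460). Aco1, the gene of iron regulatory protein 1 that binds the hairpins printed for Fth1, Ftl1, Slc40a1 and Tfrc, was at 85.2 and 90.8 CPM in Con and at 101.6 and 98.2 CPM in Fat. The Fat values exceeded both Con values, and the log2 fold change was 0.18 (SE 0.06, adjusted p = 0.101). These are mRNA levels, and these data hold no measure of the activity of NRF2, BACH1 or the iron regulatory proteins.

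Over the whole pathway, 58 genes were listed by textbook role, 57 had a row and 51 passed the filter, the 10 members included. With limma, 2 of the 51 were called higher (Hmox1 and Flvcr1) and 3 lower (Cp, Ncoa4 and Hp). At an unadjusted p under 0.05, 8 were higher and 8 lower, where 11.8% and 12.4% of all genes were. Their median log2 fold change was 0.03, beside 0.01 over all genes tested. Leaving out the 10 members, 1 of 41 was called higher and 3 lower. By role, heme uptake and export had 1 of 8 higher and 1 lower, heme breakdown 1 of 4 higher and 0 lower, ferritin and its turnover 0 of 5 higher and 1 lower, and iron uptake and release 0 of 16 higher and 1 lower. Against the 3.99% and 5.0% of all genes called, the counts of called genes over the 51 are near the background.

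**Figure D4:**
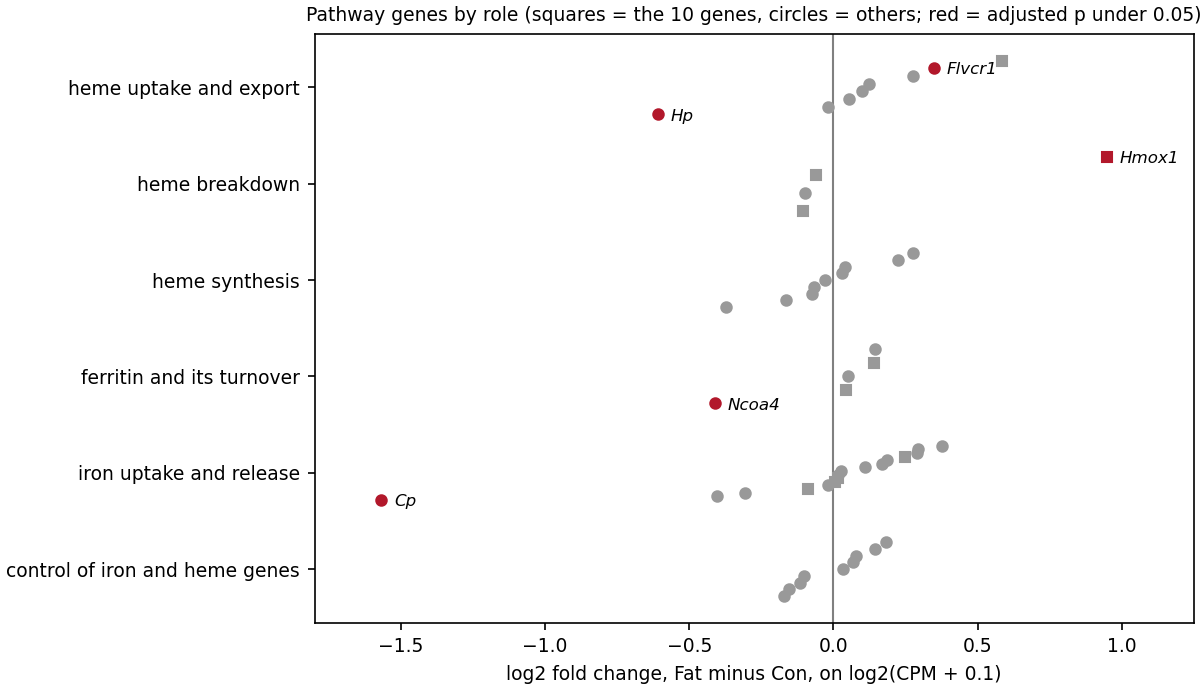
Log2 fold change (horizontal axis, Fat minus Con on log2(CPM + 0.1)) of the 51 pathway genes tested, in rows by role, with squares for the 10 members, circles for the other genes and red for an adjusted p under 0.05 (limma). The 5 red points are Hmox1 (0.95) and Flvcr1 (0.35) to the right of 0 and Cp (-1.57), Hp (-0.61) and Ncoa4 (-0.41) to the left.

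The libraries were checked for other cells, since in bulk RNA fewer cells of a type and less RNA per cell cannot be told apart. All 8 macrophage markers were present, 0 of them called higher and 2 lower in Fat (Mertk and Fcgr1), and their summed level was 36127 and 34068 CPM in Con and 28645 and 27024 CPM in Fat. Lyz2, the lysozyme gene, made up most of that sum and of its difference, at 28720 and 26819 CPM in Con and 21516 and 20347 CPM in Fat, and it was not called (adjusted p = 0.209). The other 7 markers summed to 7407 and 7250 CPM in Con and 7129 and 6677 CPM in Fat. Among them the means of Itgam (2667 CPM in Con, 2793 in Fat) and Cd68 (824 in Con, 878 in Fat) were on the other side, also without a call. For all the other markers, both Fat libraries lay below both Con libraries, as for 26.2% of all genes tested. These were Lyz2, Mertk, Fcgr1, Mrc1, Csf1r (1852 and 1638 CPM in Con, 1539 and 1477 in Fat) and Emr1 (1216 and 1141 in Con, 1064 and 1000 in Fat). The 10 adipocyte markers summed to 0.206 and 0.240 CPM in Con and to 12.4 and 6.56 CPM in Fat. Of them, 3 passed the filter (Plin4, Car3 and Cidec), each through its Fat values alone, and all 3 were called higher. Because none of the 3 reached 0.5 CPM in Con, the filter largely fixed that direction in advance. Adipoq, Lep, Aqp7 and Adrb3 were at 0 reads in both Con libraries. The adipocyte sum was higher in Fat replicate 1 than in Fat replicate 2, and it does not measure the share of adipocyte RNA in a library. The part of adipocyte RNA, or of the lower macrophage sum, in these results was not tested.

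Of 13 red cell markers, 5 had a row and 0 passed the filter, with 3, 8, 4 and 12 reads summed over Con replicates 1 and 2 and Fat replicates 1 and 2. The globin genes Hba-a1 and Hba-a2 had 1 read each in Con replicate 2 and 0 in the other libraries, and Hbb-b2 and Hbb-bt had 2 reads each in Fat replicate 2 and 0 in the others. These 4 globin genes were thus at or under 3 reads in every library. Hbb-b1 and Hbb-bs had no row under these symbols, so their levels could not be read. Reads of near-identical globin genes may have been split by a counting that is not given in the sources used here. These data hold no measure of the heme, hemoglobin or iron in the media. Neutrophil markers summed to 869 and 787 CPM in Con and to 726 and 691 CPM in Fat, with 0 of 8 called higher and 1 lower (Mmp8). Endothelial and stromal markers summed to 306 and 321 CPM in Con and to 264 and 353 CPM in Fat, with 0 of 6 higher and 1 lower (Dcn), and lymphocyte markers to 26.0, 24.5, 19.5 and 22.9 CPM, with 0 of 6 called either way.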

How the data were processed

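Bulk RNA sequencing (stranded poly(A) libraries, single reads) covered 2 Con and 2 Fat libraries. The authors deposited CPM values, in which reads are divided by the library's total and by a further factor between 0.990 and 1.01, and TPM values, which also take gene length into account. The submitters' processing notes name GRCm39. The aligner, counter and annotation are not given in the sources used here. Read counts were recovered from the deposited CPM values, of which 100% were whole reads within 0.01.

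The comparison of log2(CPM + 0.1) between Fat and Con used limma 3.58.1 (R 4.3.3), its prior variance following the mean-variance trend. The study names edgeR, which fits counts, so edgeR 4.0.16 and DESeq2 1.42.0 were alternatives on the recovered reads. Further alternatives used the deposited TPM values, median-ratio scaling, 1 CPM as pseudocount, all genes without a filter, genes averaging 5 CPM or more, a replicate block, no trend, unadjusted p, or 3 of the 4 libraries. The tests were checked on simulated counts.

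The 10 genes, pathway lists and marker lists were chosen with earlier results of these data known. Every member was named, and of the other pathway genes those called and, in each list, up to 3 uncalled ones of highest mean CPM. Flvcr1 was matched through an older symbol in RefSeq. Shared stretches were aligned with BWA 0.7.19, and Python 3.11.15 with pandas 2.3.3 and matplotlib 3.10.9 wrote the tables and figures.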

Additional observations from a re-analysis of the deposited data

How the results depend on the processing

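Of 15 alternatives, Hmox1 kept its call in 14 and lost it without the mean-variance trend (adjusted p = 0.0697), with log2 fold changes from 0.87 to 1.03. The members called lower were 0 in all 15. Blocking on the replicate number raised the genes called from 1122 to 2520, 2 members were called higher (Tfrc besides Hmox1, adjusted p = 0.00212), and 8 pathway genes were higher and 7 lower. Of the named genes it added calls for Slc25a37 (0.00422), Aco1 (0.0208), Alas1 (0.0393), Trf (0.0469) and, lower, Nfe2l2 (0.0479). The numbers are the only pairing in the labels (correlation of deviations 0.20, 2 pairs), and the block's prior degrees of freedom were 28.4 against 5.42. Without the mean-variance trend, 31 genes and 0 members were called, and 0 pathway genes in either direction. At an unadjusted p under 0.05 the counts were 3008 genes, 2 members higher, and 8 pathway genes higher and 8 lower. edgeR's exact test called 5 pathway genes lower. With each library left out in turn, 529 (without Fat replicate 2) to 1131 genes were called, 666 without Con replicate 1, with 1 to 2 members higher, 1 to 4 pathway genes higher and 1 to 2 lower, and a group left with 1 library is assumed to vary like the other.

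Genes near 0 changed sign without being called, apart from Pcbp1. With each library left out in turn, Slc11a1 ran from -0.0236 to 0.0320, Slc40a1 from -0.0434 to 0.0747, Blvrb from -0.223 to 0.0121, Slc48a1 from -0.0668 to 0.0302, Steap3 from -0.0758 to 0.127 and Pcbp1 from -0.0253 to 0.311. Slc11a1 was -0.00443 with median-ratio scaling, -0.000341 and -0.000336 with edgeR's quasi-likelihood and exact tests and -0.00425 with DESeq2. With TPM, Slc48a1 was 0.0136 and Fech 0.00307. The cause of these shifts was not tested. Summing the ferritin genes with their copies was not run, since no copy was listed.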
